A study of Saccharomyces cerevisiae with 4 samples.

Results

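Cell wall mannoproteins are the heavily sugar-coated proteins that form the outer layer of the budding yeast (Saccharomyces cerevisiae) wall. The RNA of 10 of their genes was described here, out of 7126 genes in the table, and each of the 10 was found by its gene symbol. Of these, 6 code for proteins made with a GPI anchor (TIP1, TIR1, CWP1, CWP2, SED1 and CCW12) and 4 for PIR proteins, named for their internal repeats (PIR1, HSP150, PIR3 and CIS3). Poly(A) RNA was read in 2 libraries of wild-type yeast (WT) and 2 of a mutant, T4V, in which threonine at position 4 of the RNA polymerase II CTD repeat is replaced by valine. The CTD is the tail of the largest polymerase subunit, and the series asks how this residue bears on transcription and on chromatin remodelling through the histone variant Htz1. No drug or time course was labelled, and strain background, mating type, medium and growth phase are not given in the sources used here. Nothing in the labels says that the libraries came from separate cultures, so p-values measure only the spread between these libraries. The libraries of each genotype are named A and B after their columns, which gave no replicate number.

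The yeast wall is a net of glucan and a little chitin, and mannoproteins are bound to its outside. GPI proteins travel to the cell surface on a lipid anchor and are then passed on to the glucan. PIR proteins are cut by the Kex2 protease on their way out and are bound to glucan directly, through glutamines of the repeat. Cell wall stress acts on many of these genes through the kinase Slt2 and the transcription factor Rlm1, and cell cycle factors time others to the growth of the bud or to the separation of the daughter.

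The repeat of the PIR family is shown because it joins members of both types. Translated from the R64 coding sequences, HSP150 held 11 copies of its core, PIR1 and PIR3 held 8 each and CIS3 held 1. Among the GPI members, CWP1, CWP2 and TIR1 each held 1 copy, and TIP1, SED1 and CCW12 held 0. The first copy of each gene is given in coding direction, with the codons of the 5 core residues in capitals.
PIR1: tctcaaattggtGACGGTCAAATCCAAgcc
HSP150: tcccaaattggtGATGGTCAAGTCCAAgct
PIR3: tctcagataggtGATGGTCAAGTACAGgct
CIS3: tctcaaattggtGACGGTCAAGTCCAAgcc
CWP1: tctcaaattactGATGGACAAATCCAAgct
CWP2: tctcaaatcactGACGGTCAAATCCAAgct
TIR1: tctcaaattaccGATGGTCAAATCCAAgct
These copies lie at chrV:175887-175916 (TIR1), chrXI:261723-261752 (CWP1), chrXI:259331-259360 (CWP2), chrXI:142589-142618 (PIR1, minus strand), chrX:120671-120700 (HSP150), chrXI:144608-144637 (PIR3) and chrX:122718-122747 (CIS3, minus strand).

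Other coding features separated the types. A Lys-Arg pair, the kind of site that Kex2 cuts, occurred 1 time in each PIR protein and 0 times in each GPI protein. Serine and threonine, which carry the O-linked mannose, made up 27.2% to 41.7% of the GPI proteins, with SED1 highest, and 21.2% to 26.6% of the PIR proteins. PIR1 was 69.3% identical to PIR3 and 69.2% to HSP150, while CIS3 was 35.0% to 40.0% identical to the other three. PIR1 and PIR3 share a run of 81 identical bases, and HSP150 and CIS3 one of 65 bases, so part of the reads in these genes may be shared. Windows of 36 bases that also occur elsewhere in the genome made up 8.88% of PIR1, 9.33% of PIR3, 4.62% of CIS3 and 2.49% of HSP150, where 36 was chosen here because the read length was not given. No such window was found in TIP1, CWP1, CWP2, SED1 or CCW12, and in TIR1 they made up 0.685%, with a run of 40 bases in TIR2.

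The libraries held 3355000 to 4261000 reads, as recovered from the steps of the RPKM values. RPKM is a read number divided by gene length and by library size, so levels of different genes can be set side by side. The altered subunit gene RPO21 had a mean of 52.5 RPKM in WT and 52.4 in T4V, a value that does not show the base change, and HTZ1 had 102 and 96.8. Genotypes therefore rest on the labels. In the limma test on log2(RPKM + 1) across 5935 genes, 17.9% of genes passed an adjusted p of 0.05 (Benjamini-Hochberg), with 11.7% of genes higher in T4V and 6.25% lower. Higher genes were 65.1% of these calls, against 50.4% after median-of-ratios scaling, 50.3% after quantile normalization and 53.5% with library totals rescaled. The median log2 fold change of all genes tested was 0.07, and 0.01, -0.02 and 0.02 after median-of-ratios scaling, quantile normalization and the rescaled total.

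The wall genes ranged from CCW12 among the 4 most abundant genes of each library to TIR1 near the detection floor. In WT the order of mean RPKM was CCW12, SED1, CWP2, CWP1, HSP150, CIS3, PIR1, TIP1, PIR3 and TIR1. T4V kept this order except that PIR3 stood above TIP1. Neighbours in the order did not always differ beyond their spread: SED1 and CWP2 overlapped in WT, and CWP1 with HSP150 and CIS3 with PIR1 overlapped in T4V. Together the 10 genes took 1.95% and 1.84% of the reads of the WT libraries and 2.09% and 2.22% of those of the T4V libraries. CCW12 alone made up 50.6% to 54.1% of their summed RPKM, and the 4 PIR genes 6.98% to 7.35%.

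**Figure D1:**
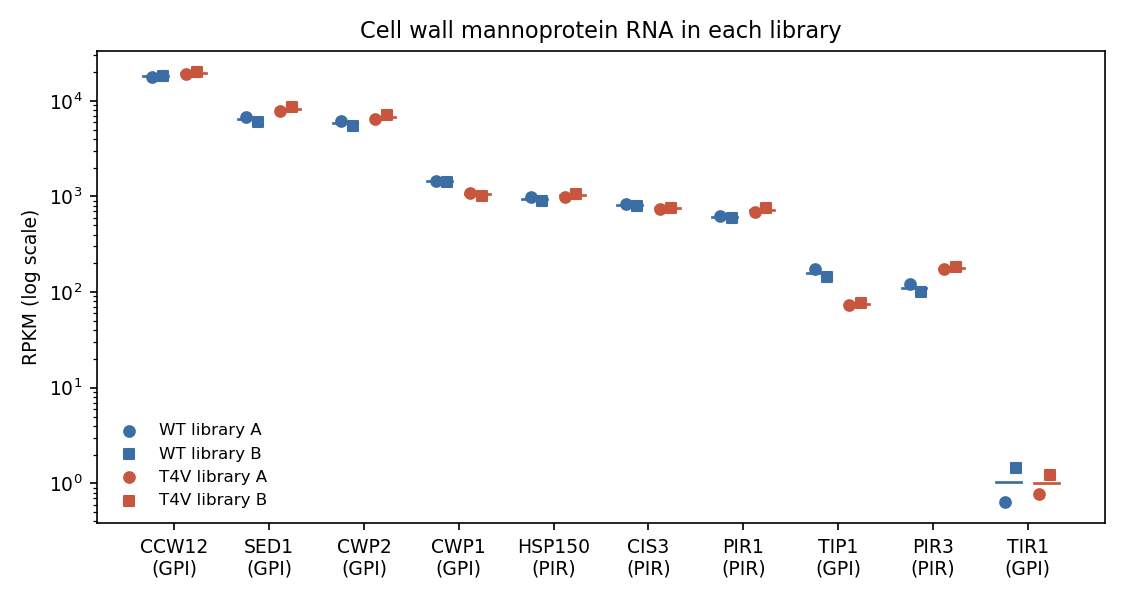
RPKM of the 10 cell wall mannoprotein genes in each library on a log axis, ordered by the WT mean, with GPI or PIR under each name. Points are libraries and short lines are means of 2 libraries. TIP1 and CWP1 lie lower in both T4V libraries than in both WT libraries, PIR3 and SED1 lie higher, and TIR1 lies near 1 RPKM.

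Of the 10 genes, PIR3 and SED1 were called higher in T4V and TIP1 and CWP1 lower, and the other 6 did not pass the test. That is 4 of 10 called, beside 17.9% of all genes tested, with 11.7% higher and 6.25% lower. The members' log2 fold changes ran from -1.08 to 0.70 with a median of 0.12. By type, 1 of 6 GPI genes was called higher and 2 lower, and 1 of 4 PIR genes was called higher and 0 lower. Lower PIR genes also numbered 0 at an unadjusted p under 0.05 and 0 by voom on recovered reads. The genotypes did not overlap for 9 of the 10 genes, 6 higher and 3 lower in T4V, while 62.0% of all genes tested were apart in this way. Voom, a limma test that weights log counts by their precision, called 4 of 9 genes higher (PIR3, SED1, PIR1 and CWP2) and the same 2 lower. Its background was 28.5% of 5519 genes, 18.0% higher and 10.5% lower.

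**Figure D2:**
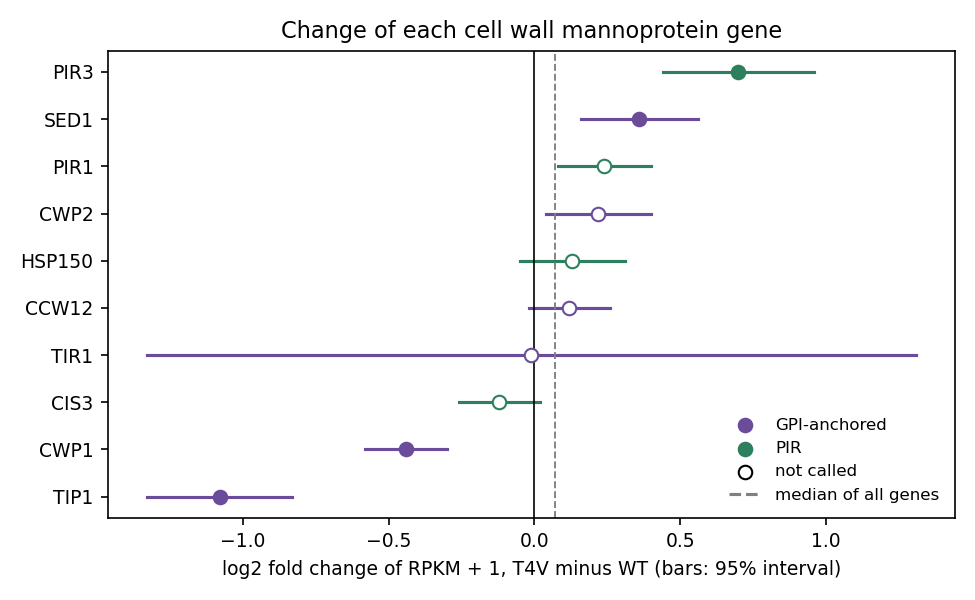
Log2 fold change of each gene on the log2(RPKM + 1) scale, T4V minus WT, with 95% intervals from limma (n = 2 libraries per genotype). Filled points passed an adjusted p under 0.05, and the dashed line is the median of all genes tested, 0.07. TIP1 and CWP1 lie to the left of 0 and PIR3 and SED1 to the right, and the interval of TIR1 is the widest.

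TIP1 (YBR067C), a serine- and alanine-rich mannoprotein whose RNA is known to rise on heat and cold shock, fell the most of the 10. It lies on chromosome II at 372103 to 372735 on the minus strand, in 1 exon. Its RPKM was 174 and 144 in the WT libraries and 72.5 and 76.4 in the T4V libraries. Both T4V values were well under both WT values, and TIP1 moved from ranks 925 and 1109 among all genes to ranks 2104 and 1993. Means were 159 ± 21.2 RPKM in WT and 74.4 ± 2.73 in T4V (SD, n = 2 each). TIP1 changed by -1.08 ± 0.11 (SE) on the log2 scale, with an adjusted p of 0.0017 in limma. That is 0.472 of the WT level, with a 95% interval of 0.397 to 0.562. The change rests on 783 reads in WT and 360 in T4V. In cultures measured in bulk, fewer cells that express a gene and less RNA per cell cannot be told apart.

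TIR1 (YER011W), on chromosome V at 175248 to 176012, is a relative of TIP1 that yeast induces in the cold and without oxygen, and the pair were 41.8% identical as proteins. TIR1 had 0.643 and 1.43 RPKM in WT and 0.779 and 1.23 in T4V, from 2, 4, 2 and 4 reads. These values overlap and lie near the limit that a count of 0 allows, 3 reads, which is 0.704 to 0.894 RPKM for a gene of 1 kb. The 95% interval of its log2 fold change ran from -1.33 to 1.31, so a change as large as that of TIP1 was not detectable at this depth.

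CWP1 (YKL096W), on chromosome XI at 261132 to 261851, codes for a protein found at the birth scars of daughter cells. It had 1441 and 1431 RPKM in WT and 1094 and 1023 in T4V. The WT libraries were nearly alike, and both T4V libraries were lower. Means were 1436 ± 6.58 RPKM in WT and 1058 ± 50.4 in T4V (SD, n = 2 each). CWP1 changed by -0.44 ± 0.06 (SE) on the log2 scale, with an adjusted p of 0.00531 in limma. The 95% interval was 0.668 to 0.813 of the WT level.

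CWP2 (YKL096W-A) lies on the same strand, 1600 bases before CWP1, at 259253 to 259531, and codes for a short, abundant GPI protein of 92 residues. Its 4 values were 6136 and 5508 RPKM in WT and 6489.8 and 7053 in T4V. Both T4V values were above both WT values, by less than for SED1. The log2 fold change was 0.22 ± 0.08 (SE), and with a limma adjusted p of 0.0961 it did not pass, while voom gave an adjusted p of 0.00674. The ratio of CWP2 to CWP1, which 1 scaling factor per library cannot move, was 4.26 and 3.85 in WT and 5.93 and 6.90 in T4V. The 2 genotypes did not overlap in this ratio, and with 2 libraries against 2 the smallest 2-sided p that an exact permutation test can give is 0.333.

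SED1 (YDR077W), on chromosome IV at 600793 to 601809, codes for a stress-induced GPI protein that is the main coat protein of resting cells. Values were 6808 and 5956 RPKM in WT and 7798 and 8539 in T4V. Each T4V library was above each WT library. Means were 6382 ± 603 RPKM in WT and 8169 ± 524 in T4V (SD, n = 2 each). SED1 rose by 0.36 ± 0.08 (SE) on the log2 scale, with an adjusted p of 0.0296 in limma. The call was lost after median-of-ratios scaling (0.29, adjusted p = 0.0588), with the rescaled total (0.31, adjusted p = 0.0536) and without T4V library B (0.29, adjusted p = 0.0888). Over all alternatives the adjusted p ran from 6.47e-06 to 0.218. RefSeq describes the SED1 coding sequence as holding variable minisatellites, and PIR3 as varying in length between strains, so RPKM per reference length depends on a strain that was not named.

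CCW12 (YLR110C), on chromosome XII at 369697 to 370098 on the minus strand, codes for a mannoprotein of newly made wall, found mainly at small buds. It was the most abundant of the 10, with 17883 and 18150.0 RPKM in WT and 19254 and 19906 in T4V. T4V was above WT in each library, by little. The log2 fold change was 0.12, with a 95% interval of -0.02 to 0.26 and a limma adjusted p of 0.197. It was 0.32 and passed, with an adjusted p of 0.0322, after quantile normalization, where CWP2 also passed at 0.34. Its duplicate CCW22 (YDR134C) had 991 and 821 RPKM in WT and 935 and 1009 in T4V, which overlap; it was picked as a duplicate, outside the rule for named genes.

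PIR3 (YKL163W), on chromosome XI at 144401 to 145378, rose the most of the 10 genes. Its RNA is known to peak as cells leave mitosis and to answer to the cell wall integrity pathway. PIR3 had 122 and 99.0 RPKM in WT and 175 and 184 in T4V. Both T4V libraries were well above both WT libraries. Means were 111 ± 16.5 RPKM in WT and 179 ± 6.29 in T4V (SD, n = 2 each). PIR3 rose by 0.70 ± 0.11 (SE) on the log2 scale, with an adjusted p of 0.00817 in limma. The T4V level was 1.62 times that of WT, with a 95% interval of 1.35 to 1.94, from 841 reads in WT and 1340 in T4V.

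PIR1 (YKL164C) lies back to back with PIR3, at 141794 to 142819 on the minus strand, and 1581 bases separate the 2 genes. It had 628 and 592 RPKM in WT and 695 and 748 in T4V. All T4V values were above all WT values, but by less than for PIR3. The log2 fold change of 0.24 ± 0.07 (SE) had a limma adjusted p of 0.0511, just over the threshold, and a voom adjusted p of 0.00472. It passed in limma when an RPKM of at least 10 was required (adjusted p = 0.0438) and without WT library A (adjusted p = 0.0435). PIR1 stood at 5.13 and 5.98 times the RPKM of PIR3 in WT and at 3.97 and 4.07 times in T4V.

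HSP150 (YJL159W), a secreted heat shock protein also called PIR2, and CIS3 (YJL158C), also called PIR4, are neighbours on chromosome X, at 120449 to 121690 and 122265 to 122948. They point at each other across 574 bases. HSP150 had 989 and 887 RPKM in WT and 991 and 1066 in T4V, so that WT library A and T4V library A were nearly equal. CIS3 had 836 and 795 RPKM in WT and 745 and 757 in T4V. Its T4V values were lower than its WT values in each library. The log2 fold changes were 0.13 and -0.12 with 95% intervals of -0.05 to 0.31 and -0.26 to 0.02, and neither passed, with limma adjusted p of 0.264 and 0.21. The ratio of HSP150 to CIS3 was 1.18 and 1.12 in WT and 1.33 and 1.41 in T4V.

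**Figure D3:**
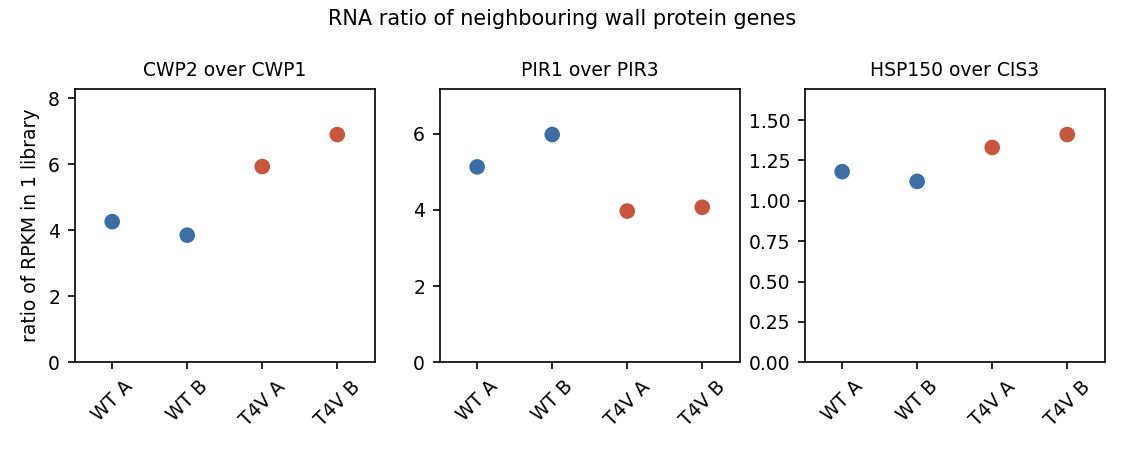
Ratio of RPKM between neighbouring wall protein genes in each library, each axis starting at 0. CWP2 over CWP1 is 3.85 to 4.26 in WT and 5.93 to 6.90 in T4V, PIR1 over PIR3 is 5.13 to 5.98 and 3.97 to 4.07, and HSP150 over CIS3 is 1.12 to 1.18 and 1.33 to 1.41.

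The genes next to the members were also read. Of 14 neighbours that are no member, 12 are protein-coding and 9 could be tested. Limma called 0 of these 9, beside 17.9% of all genes tested. At an unadjusted p under 0.05 there were 0, and by voom 0, beside 28.5% of all genes that voom tested. So few genes cannot show whether neighbours change less often than other genes. Their log2 fold changes ran from -0.03 for AHP1, a peroxiredoxin gene beside CCW12, to 0.22 for NRG2, a repressor gene beside TIP1. On the other side of TIP1 the amino acid permease gene BAP2 stood at 0.08.

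**Figure D4:**
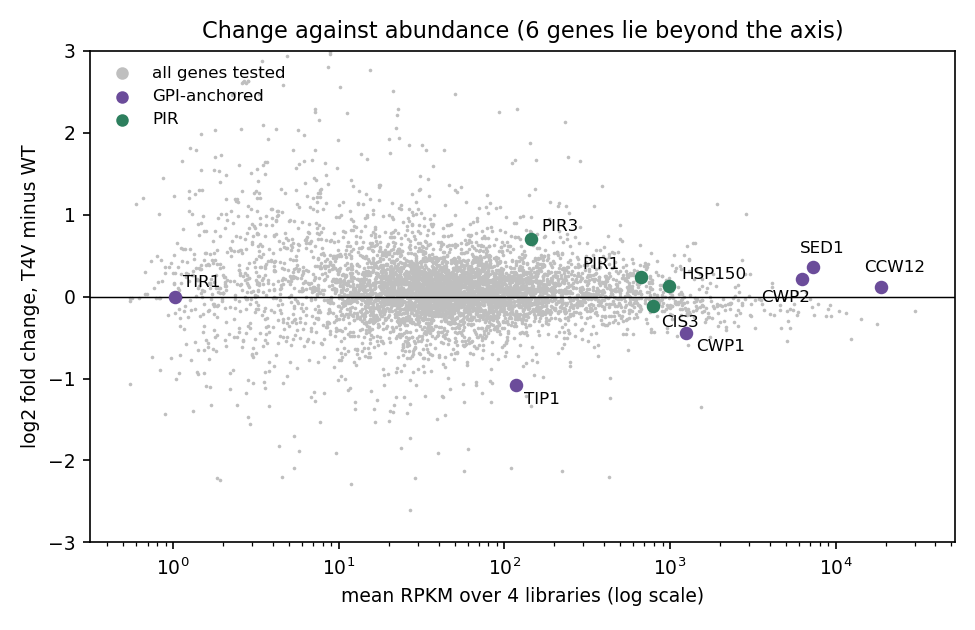
Log2 fold change against mean RPKM over the 4 libraries, on a log axis, for the 5935 genes tested (6 lie beyond the vertical axis). GPI genes are purple and PIR genes green. CCW12, SED1 and CWP2 lie at the abundant end, TIR1 at the low end, and TIP1 and PIR3 near 100 RPKM on opposite sides of 0.

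Upstream sequence is shown for the 4 called genes and for HSP150, whose window holds the Rlm1 motif, as do those of CWP1 and PIR3. Other members that were not called share other motifs with called genes, as given below, and their windows are not printed. Each window runs from 400 to 101 bases before the start codon in gene direction, read from the R64 genome, and the matches to the motifs searched are in capitals.
TIP1: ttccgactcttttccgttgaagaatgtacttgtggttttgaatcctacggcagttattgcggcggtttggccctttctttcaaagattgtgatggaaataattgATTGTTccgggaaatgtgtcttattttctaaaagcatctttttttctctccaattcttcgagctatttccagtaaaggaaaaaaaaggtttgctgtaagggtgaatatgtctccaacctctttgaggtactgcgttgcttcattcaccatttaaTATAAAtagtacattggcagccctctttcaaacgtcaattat
CWP1: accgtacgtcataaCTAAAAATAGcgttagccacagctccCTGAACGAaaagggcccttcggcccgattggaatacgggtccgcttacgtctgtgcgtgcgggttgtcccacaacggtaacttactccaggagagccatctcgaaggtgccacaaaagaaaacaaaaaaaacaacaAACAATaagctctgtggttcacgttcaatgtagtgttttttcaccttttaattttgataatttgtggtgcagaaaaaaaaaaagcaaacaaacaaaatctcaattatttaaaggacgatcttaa
SED1: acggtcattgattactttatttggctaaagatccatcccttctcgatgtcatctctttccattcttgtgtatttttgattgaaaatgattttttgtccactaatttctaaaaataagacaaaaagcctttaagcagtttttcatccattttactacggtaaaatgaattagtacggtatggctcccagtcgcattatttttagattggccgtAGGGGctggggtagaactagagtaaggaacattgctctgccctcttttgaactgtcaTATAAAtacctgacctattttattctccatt
PIR3: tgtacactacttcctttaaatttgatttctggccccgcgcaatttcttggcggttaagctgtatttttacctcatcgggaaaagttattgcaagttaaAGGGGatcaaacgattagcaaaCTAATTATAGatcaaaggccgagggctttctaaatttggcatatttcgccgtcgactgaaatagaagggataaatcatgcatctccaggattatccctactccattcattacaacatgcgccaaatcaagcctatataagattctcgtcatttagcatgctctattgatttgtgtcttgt
HSP150: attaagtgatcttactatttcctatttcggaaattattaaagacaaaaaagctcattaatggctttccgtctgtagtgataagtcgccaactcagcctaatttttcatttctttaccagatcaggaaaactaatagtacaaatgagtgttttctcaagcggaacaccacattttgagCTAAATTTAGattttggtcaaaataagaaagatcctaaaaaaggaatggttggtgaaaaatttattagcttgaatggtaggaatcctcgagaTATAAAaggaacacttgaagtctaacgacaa
The windows are chrII:372836-373135 (TIP1, minus strand), chrXI:260732-261031 (CWP1), chrIV:600393-600692 (SED1), chrXI:144001-144300 (PIR3) and chrX:120049-120348 (HSP150).

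The Rlm1 motif was present in 3 of the 10 windows, those of CWP1, PIR3 and HSP150, and in 1.05% of the 6001 windows of this length in the genome. It matched as CTAAAAATAG at 386 to 377 bases before the CWP1 start codon, as CTAATTATAG at 280 to 271 before PIR3 and as CTAAATTTAG at 223 to 214 before HSP150. The stress element AGGGG was found for SED1, PIR3 and CIS3, and in 23.5% of all windows. The Swi4 motif CNCGAAA was found for CWP2 and CCW12 and in 15.5%, and the Upc2 motif TCGTTNAG for CWP1 and in 3.13%. The Rox1 core ATTGTT was found for TIP1, TIR1 and CWP1 and in 31.9%, and TATAAA for 7 members and in 43.8%. ACGCGT and CACGTG were in none of the 10 windows and in 3.95% and 4.55% of all. Both strands were searched, the motifs do not overlap in these windows, and a match describes letters only. Of the members with an Rlm1 match, CWP1 was called lower, PIR3 was called higher and HSP150 did not pass. A role of Rlm1 in these values was not tested.

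Of the wall genes outside the 10, 99 on 6 lists were tested, and 14 were called higher and 12 lower, beside 11.7% higher and 6.25% lower of all genes. The lists were written by gene name, and their members include close relatives, so their genes are not independent.

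The list of other GPI-anchored and PIR surface proteins had 7 genes called higher and 2 lower of 21 tested, 42.9% against 17.9% of all genes, with a median log2 fold change of 0.26. SPI1, the duplicate of SED1 and a wall protein of resting and acid-stressed cells, went from 60.5 and 41.0 RPKM to 115 and 109. SPI1 rose by 1.15 (limma adjusted p = 0.007) and passed with each scaling, also when any 1 library was left out of the main scaling. CCW14, a wall protein of the inner layer, rose by 0.53 from 641 and 611 to 852 and 961 RPKM. AGA1, the anchor of the mating adhesin, rose by 0.67, but lost its call under each other scaling and without WT library B, T4V library A or T4V library B. In the other direction, YPS3, a GPI-anchored protease, fell by 1.49, from 60.5 and 55.7 to 21.1 and 19.1 RPKM, and TOS6 fell by 0.60. The other 4 called higher, named after their values were seen, were YPS1 at 0.59, FIT3 at 0.53, PST1 at 0.42 and YLR194C at 0.40. FIT3 rested on 90 reads in WT and 132 in T4V, with a limma adjusted p of 0.0422. Voom did not call FIT3 (voom adjusted p = 0.0576), while it called YPS1, PST1 and YLR194C higher. Under each other scaling 5 genes of this list were called higher and 2 lower.

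In the TIR and DAN family, wall proteins of cells without oxygen, 1 of 5 tested genes was called, beside 17.9% of all genes. TIR4 went from 2.52 and 2.06 to 7.74 and 9.78 RPKM, a rise of 1.57 on the log2 scale (adjusted p = 0.0127 in limma), from 26 reads in WT and 99 in T4V. Without T4V library B its call was lost. The other 4 did not pass limma. Their log2 fold changes were 1.26 for PAU23 (limma adjusted p = 0.127), 1.00 for TIR2 (0.0584), -0.07 for DAN4 (0.902) and -0.44 for TIR3 (0.182). These 4 were named after their values were seen, and with TIR4 they are all the tested genes of the 7 on the list. DAN1 and PAU24 were too low to test. DAN1 had 0.274 and 0 RPKM in WT and 1.33 and 0.262 in T4V, and PAU24 had 2.03 and 0.754 in WT and 0 and 0 in T4V. Voom called 2 of the 5 tested genes higher, TIR4 and TIR2 (voom adjusted p = 0.00318 for TIR2), beside 18.0% of all genes. ROX1, from the list of transcription factors, codes for the repressor of many genes of oxygen-starved cells. ROX1 fell by 0.45 (limma adjusted p = 0.0413), a call lost without WT library A or T4V library A. A link between ROX1 and the genes of this family was not tested.

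Glucanases and transglycosidases, which cut and rejoin wall glucan, had 4 genes called higher and 2 lower of 18, with a median of -0.07. That is 33.3% called, beside 17.9% of all genes. UTR2, a transglycosidase that joins chitin to glucan, fell by 0.65, from 695 and 675 to 431 and 440.3 RPKM, and GAS1, the main glucan-elongating enzyme, fell by 0.32. EXG2, a glucanase gene, rose by 0.36 and UTH1 by 0.32. The GAS1 call was lost without T4V library A, the EXG2 call without either T4V library, and the UTH1 call without WT library B or either T4V library. After median-of-ratios scaling or the rescaled total, 2 genes of this list were called higher and 2 lower. Without the variance trend 0 were called higher and 1 lower, beside 265 and 134 of all 5935 genes. Voom called 4 higher and 4 lower, beside 18.0% and 10.5% of all genes it tested.

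**Figure D5:**
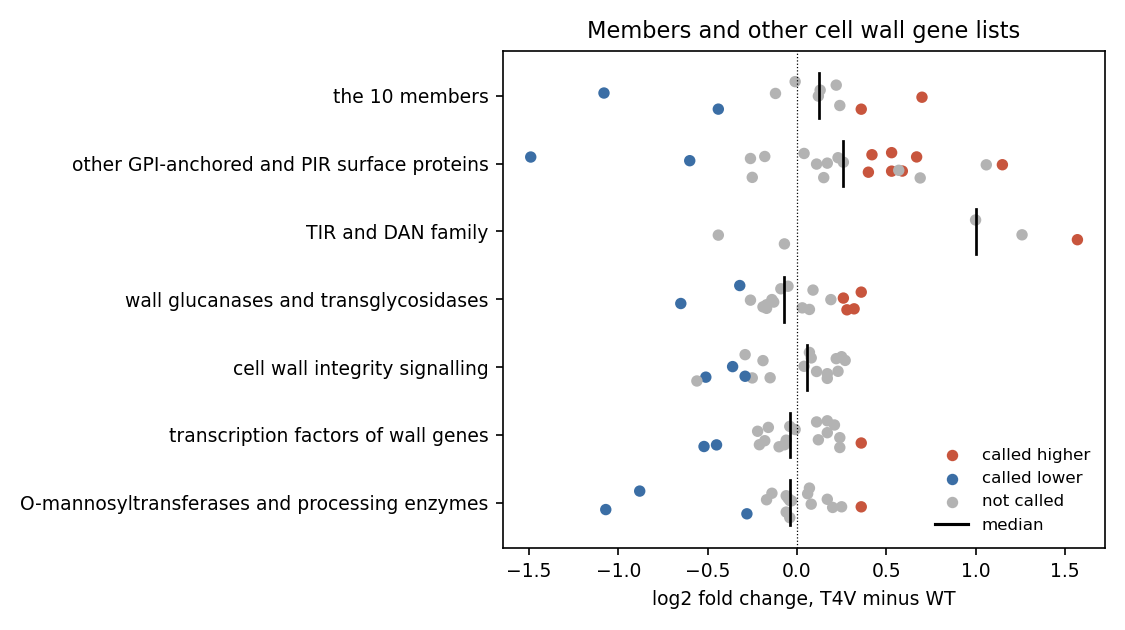
Log2 fold change, T4V minus WT, of every tested gene of the 10 members and of the 6 other cell wall lists. Red points were called higher, blue points lower and grey points did not pass, and the bar is the median of the row. Called genes lie on both sides of 0 for the members and for 4 of the lists. The TIR and DAN family holds called genes on the right alone, and cell wall integrity signalling on the left alone.

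Of 18 genes of cell wall integrity signalling, 0 were called higher and 3 lower. The share called was 16.7%, near the 17.9% of all genes, of which 11.7% were higher and 6.25% lower. Voom also called 0 higher and 3 lower, beside 18.0% and 10.5% of all genes. PKC1, the protein kinase at the head of the cascade, fell by 0.51, from 73.3 and 70.1 to 51.4 and 48.7 RPKM. SLT2, its MAP kinase, fell by 0.29 (limma adjusted p = 0.0385), a call lost when any 1 library was left out, and ZEO1, a membrane protein gene of the pathway, fell by 0.36. The transcription factor gene RLM1 had 72.3 and 66.0 RPKM in WT and 79.1 and 76.4 in T4V, and SWI4 had 19.5 and 19.6 in WT and 17.9 and 18.4 in T4V. Neither passed, with limma adjusted p of 0.235 and 0.624. Among 19 transcription factor genes, MSN4 was called higher, at 0.36, and SOK2 and ROX1 lower, with SOK2 at -0.52, which is 15.8% called, beside 17.9% of all genes. The MSN4 call was lost with each other scaling and whichever library was left out, and SOK2 without WT library A, T4V library A or T4V library B.

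The enzymes that dress and process wall proteins had 1 of 18 genes called higher and 3 lower, 22.2% beside 17.9% of all genes. KTR3, a mannosyltransferase, fell by 1.07, from 74.9 and 77.7 to 36.1 and 35.7 RPKM, and kept its call under each alternative run. PMT6, a member of the O-mannosyltransferase family, fell by 0.88, and DFG5, which takes part in binding GPI proteins to the wall, by 0.28, a call lost without any 1 library. KRE2, another mannosyltransferase, rose by 0.36, a call lost without T4V library B. KEX2, the protease that cuts PIR proteins, stood at 36.3 and 33.7 RPKM in WT and 36.0 and 32.5 in T4V, with an adjusted p of 0.877. PIR5 (YJL160C), the family member beside HSP150, was too low to test, at 0.285 and 0.633 RPKM in WT and 0.69 and 0 in T4V.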

How the data were processed

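Poly(A) RNA was sequenced from 2 WT and 2 T4V libraries on an Illumina Genome Analyzer IIx, with a protocol that keeps the strand, per the labels' protocols. Reads were placed with Bowtie2 on sacCer3, per the submitters' processing notes. No version, counting program, annotation or strand setting is given in the sources used here. RPKM values, in 1 table of 7126 genes, are what the authors deposited, and they were used as they stand.

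Of these genes, 6048 matched the RefSeq annotation of R64, the assembly behind sacCer3, by systematic name. Whole reads were worked out from the RPKM steps, each gene's exonic length and the library total; 99.4% to 99.6% of low values fell within 0.1 of a whole number. The totals were 4068000 and 3655000 reads in WT and 3355000 and 4261000 in T4V. Read counts come from PCR products without molecular identifiers, so limits from them cover counting error only.

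The main test was limma 3.58.1 in R 4.3.3 on log2(RPKM + 1), 2-sided, with a variance trend, on genes that reached 1 RPKM in 2 or more libraries. Calls needed an adjusted p under 0.05 (Benjamini-Hochberg, over all genes tested); fold changes on this scale understate low genes. Leave-out fits applied the filter to the remaining 3 libraries, where a lone library is assumed to vary like the other genotype. Alternatives changed the pseudocount, filter, scaling, variance model, threshold and test. The filter on genes above 0 in at least 1 library was added after the data were seen. The members and lists were chosen with earlier results of these data known. Named genes were all members, their neighbours, up to 4 called genes per list by size of change, and PIR5, CCW14, SWI4, RLM1, SLT2, KEX2, RPO21 and HTZ1. Sequences are from RefSeq R64; identity is over columns of global alignments, with Biopython 1.88 and Python 3.11.15.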

Additional observations from a re-analysis of the deposited data

How the results depend on the processing

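The calls of TIP1 and CWP1 lower and of PIR3 higher held under every pseudocount, scaling and left-out library tried, and with voom. Counts of members called higher, 2 in the main test, were 1 at an adjusted p under 0.01, 1 with the rescaled total, 1 after median-of-ratios scaling, 4 after quantile normalization, 4 with voom and 1 to 4 when a library was left out. Without WT library A CWP2 and PIR1 joined the calls, and without T4V library B SED1 left them. With no filter on low values limma called 0 members higher and 0 lower, where 2 and 3 had an unadjusted p under 0.05; this fit includes genes at 0 in every library, and among genes above 0 in at least 1 library the calls were again 2 and 2. Without the variance trend 0 were called higher and 1 lower (TIP1), where 2 and 2 had an unadjusted p under 0.05. Of the other wall genes 26 were called in the main test, 11 at an adjusted p under 0.01, 3 with no filter, 7 without the trend, and 14 to 22 when a library was left out (14 without T4V library A, 15 without T4V library B). No called member changed direction. Higher genes were 65.1% of all calls, 53.5% with the rescaled total, 50.4% after median-of-ratios scaling and 50.3% after quantile normalization.

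Genes called across the genome numbered 692 higher and 371 lower in the main test, and 27 and 22 with no filter, 265 and 134 without the trend, 234 and 130 at an adjusted p under 0.01, 404 and 273 without T4V library A, 416 and 250 without T4V library B, and 994 and 577 with voom. Depth limits TIR1 alone among the members, with 12 reads in all. The columns carry letters A and B that the labels do not tie to a replicate number. Over the 5935 genes tested the A deviations of WT and T4V had a correlation of -0.01. This value alone does not settle whether libraries of the same letter were handled together. A fit with the letter as a replicate block, added after the data were seen, called the same 2 members higher and 2 lower, 24 of the other wall genes, and 744 higher and 393 lower across the genome.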

Other observations

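Flocculin genes, which code for GPI-anchored adhesins that make yeast cells stick together, did not pass limma. Of them, 3 were picked out after their values were seen because voom called them higher in T4V. Voom called 18.0% of all genes it tested higher. MUC1, also called FLO11, had 2.70 and 1.67 RPKM in WT and 4.87 and 6.35 in T4V, a difference of 1.06 on the log2 scale (adjusted p = 0.0756 in limma), from 70 reads in WT and 178 in T4V. FLO5 had 7.24 and 5.26 RPKM in WT and 10.2 and 11.0 in T4V, with an adjusted p of 0.0811, and FLO10 had 4.13 and 3.74 in WT and 5.94 and 6.75 in T4V, with an adjusted p of 0.171. FLO1 had 0.906 and 1.07 RPKM in WT and 1.36 and 1.12 in T4V, and FLO9 had 1.67 and 1.17 in WT and 0.826 and 1.24 in T4V, and neither test called them. Flocculin genes hold long internal repeats and are close relatives, so reads of 1 gene can be counted to another.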
